A study of Homo sapiens with 4 samples.

Results

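The 35 genes described here encode the enzymes that make, salvage and interconvert purine and pyrimidine nucleotides, together with the dNTP hydrolase SAMHD1. They were chosen by name, and each matched 1 of the 58735 Ensembl gene identifiers in the deposited tables through GENCODE 29. ADSSL1 is now called ADSS1 and is given under that name. RNA sequencing was done on MOLM13 cells, an acute myeloid leukaemia line with an MLL::AF9 fusion, after 12 h in DMSO, which served as vehicle, in SD70, in MI-503, or in both agents at once. SD70 is known as a KDM4C inhibitor (KDM4C removes methyl groups from histone H3), and MI-503 keeps menin from binding MLL. The series addresses what underlies a synergistic effect of the agents. Each group was 1 library from 1 cell line, the doses are not stated in these sources, and no difference between libraries has a replicate check.

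Cells build purines on ribose phosphate: PRPP synthetase supplies the activated sugar, and a chain of enzymes from PPAT to ATIC assembles IMP, from which AMP and GMP branch. Pyrimidines are built as a ring first, by CAD and DHODH, and UMPS then attaches it to PRPP to give UMP. Ribonucleotide reductase turns ribonucleotides into deoxynucleotides, and thymidylate synthase makes the thymine nucleotide dTMP. Salvage enzymes such as HPRT1 and TK1 recycle bases and nucleosides. Several of these genes are known MYC or E2F targets and are high in dividing cells.

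Levels are FPKM, a read density per kilobase of exon after scaling for library size, and where 4 values are given they are in the order DMSO, SD70, MI-503 and the combination. The libraries held 14695753 to 15937390 reads, which were recovered as whole numbers from the deposited values. Protein-coding genes took 95.99% and 96.03% of the reads in both libraries with SD70, against 97.09% and 96.92% in the others, and mitochondrial ribosomal RNA 1.5% and 1.43%, against 0.853% and 0.928%. The part of these shares in the results below was not tested. Of 8 marker genes of the line, all 8 were above 1 FPKM on average, among them CD33, FLT3 and HOXA9. Of 12 markers of other cell types, MS4A1, CD3E, HBB and EPCAM were listed at 0 in all 4 libraries, and 2 (PECAM1 and KRT18) averaged at least 1 FPKM. With SD70, PTPRC and PECAM1 rose (from 11.7 to 27.7 and from 11.8 to 27.4 FPKM with SD70 alone, limma adjusted p = 0.0364 and 0.0266). MEIS1 and MPO fell (from 5.84 to 1.45 and from 10.3 to 6.64 FPKM with SD70 alone, limma adjusted p = 0.0224 and 0.0301). These p-values come from a fit of all 4 libraries, described below. MPO was at 16.8 FPKM with MI-503 and 10.5 in the combination, so the combination was not below DMSO. The part of these marker changes in the results was not tested either. In bulk RNA, fewer cells of a kind and less RNA per cell cannot be told apart.

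Most nucleotide synthesis genes were lower in both libraries that received SD70, from the first enzymes of both pathways to ribonucleotide reductase. PAICS, the bifunctional enzyme of the purine chain, stood at 54.5 FPKM with DMSO and 18.7 with SD70. RRM2, the small subunit of ribonucleotide reductase, stood at 41.9 and 14.5 FPKM. SAMHD1, which degrades dNTPs, went the other way, from 5.18 to 12.5 FPKM, and IMPDH2, the main IMP dehydrogenase gene of these cells, was at 141 and 159 FPKM. MI-503 alone left 25 of the 34 measured members under DMSO, most of them slightly, against 6760 of 12296 genes in all. Of 16 measured de novo synthesis genes, 13 were higher in the combination than in SD70 alone, against 6670 of the 12296.

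Over the 35 genes the median level was 25.5 FPKM with DMSO, 12.5 with SD70, 21.9 with MI-503 and 14.3 in the combination. Folds are differences of log2(FPKM + 1), which understates the change of low genes, and genes whose 4 values averaged less than 1 FPKM were set aside. That minimum kept 34 of the members and 12296 genes in all; ADSS1, the adenylosuccinate synthase gene best known from muscle, was under it, at 0.699, 0.795, 0.577 and 1.05 FPKM. Of the 34, 24 were lower by at least 1.5-fold in SD70 than in DMSO, where 18.8% of all genes were, and 1 was higher, where 14.6% were. By 2-fold, 12 were lower (6.37% of all genes) and 1 was higher (6.01%). Among protein-coding genes alone, the background at 1.5-fold was 19.4% lower and 12.3% higher. The median log2 fold was -0.87 for the members and -0.07 for all genes. After scaling by FPKM total or by read total, the share of higher genes among all genes past 1.5-fold moved from 43.6% to 53.7% and 54.2%.

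The libraries with SD70 could also be compared in the presence of MI-503. There 15 members were lower by at least 1.5-fold (9.21% of all genes) and 0 were higher (7.59%), and the median was -0.53 against -0.04 for all genes. The protein-coding background was 8.47% lower and 5.16% higher, and at 2-fold 0 members were lower (1.64% of all genes) and 0 higher (2.74%). After scaling by FPKM total or by read total, the share of higher genes among all genes past 1.5-fold moved here from 45.2% to 57.7% and 55%. Those 15 were lower by at least 1.5-fold in both pairs of libraries, as were 7.43% of all genes, and 0 were higher in both (5.31%). Both libraries with SD70 lay below both without it for 27 of the 34 members, where 42% of all genes did, and above for 4, where 32.1% did.

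A fit of all 4 libraries was made with limma's moderated test, with 1 term for SD70 and 1 for MI-503, 2-sided, and p-values were adjusted across the 12296 genes by Benjamini-Hochberg. Each term contrasts the 2 libraries that received the agent with the 2 others, which leaves 1 residual degree of freedom. For SD70, 22 members fell (14.7% of all genes were called down) and 1 rose (7.86% were called up), at adjusted p under 0.05. These calls were lost without the mean-variance trend, where the smallest adjusted p of a member was 0.0514, and with no filter on low genes, where it was 0.277. The words rose and fell below stand for calls of this fit. For MI-503 the fit called 0 members and 0 of the 12296 genes, with 0 members and 401 genes at an unadjusted p under 0.05, and limma-voom on the reads also called 0 members, with 5 genes up and 3 down over the whole table.

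**Figure D1:**
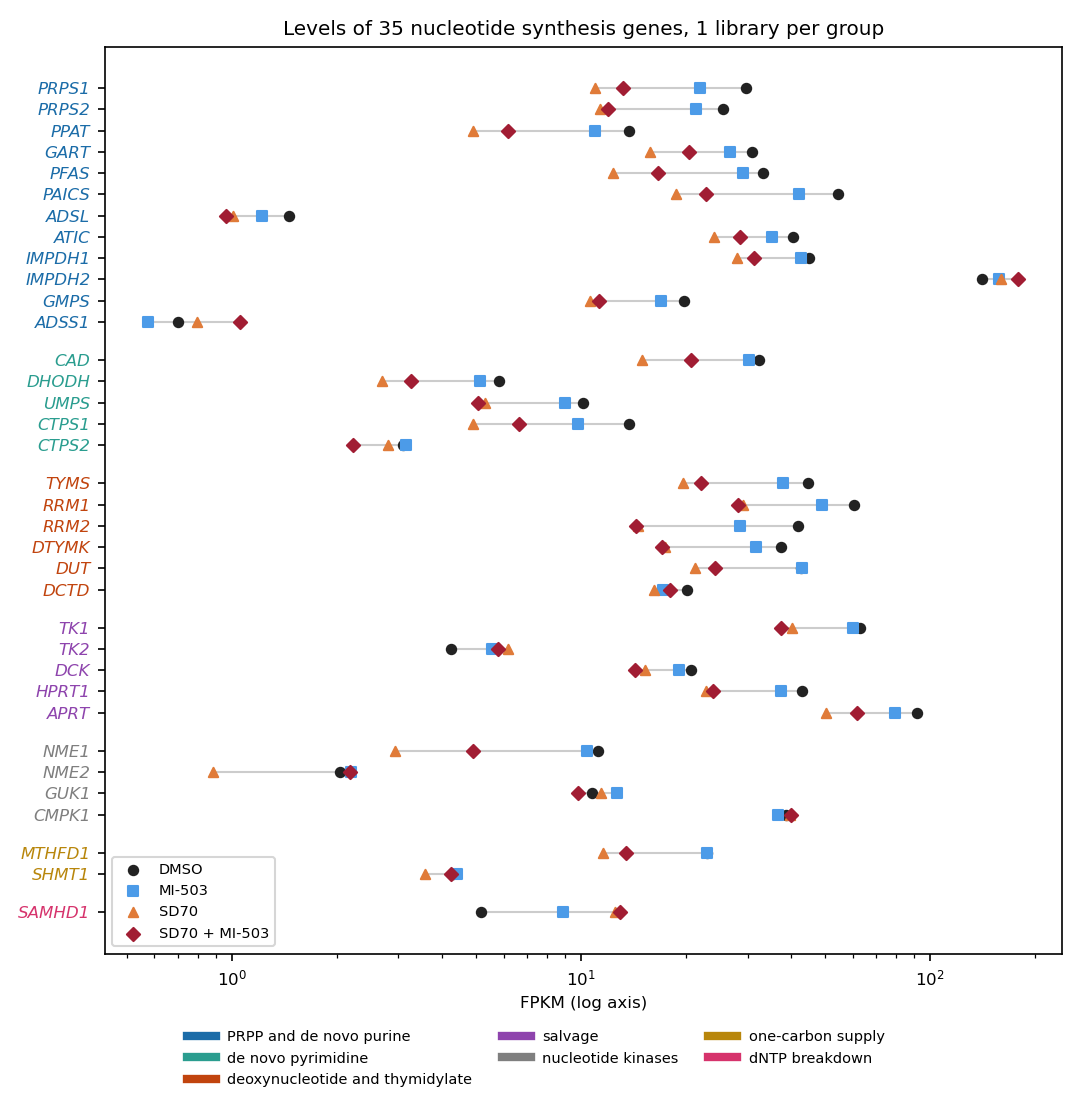
FPKM of the 35 genes on a log axis, with 1 point for each library and names coloured by role. For most genes the points of SD70 and of the combination lie to the left of those of DMSO and MI-503, while IMPDH2 stays near 141 to 179 FPKM and SAMHD1 runs the other way, from 5.18 to 12.9 FPKM.

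The first step, making PRPP, was lower through both of its genes. PRPS1 stood at 29.6 FPKM with DMSO, 10.99 with SD70, 21.9 with MI-503 and 13.2 in the combination, and it fell with SD70 (change on the log2 scale -1.02 ± 0.19 SE, limma adjusted p = 0.0266). PRPS2, the second PRPP synthetase, was at 25.5, 11.3, 21.4 and 12.0 FPKM and fell as well (-0.95 ± 0.14 SE, limma adjusted p = 0.0224). For both genes the libraries with SD70 lay below both others.

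PPAT, the amidotransferase that commits PRPP to purines, was at 13.7, 4.92, 10.98 and 6.18 FPKM. Its ratio of SD70 to DMSO was 0.36, with a 95% counting interval of 0.321 to 0.403. Such intervals are exact (Clopper-Pearson, given the summed reads of the gene), compare 2 libraries rather than 2 conditions, and cover counting error only, since reads copied by PCR were not told apart by molecular identifiers. PAICS was at 54.5, 18.7, 42.1 and 22.8 FPKM, a ratio of 0.344 (0.328 to 0.361). PPAT and PAICS fell with adjusted p = 0.0246 and 0.0229 in limma. They are neighbours on chromosome 4, read away from each other with 125 bases between their starts in GENCODE 29 (56435615 for PPAT and 56435741 for PAICS, GRCh38). PAICS ran 3.98, 3.81, 3.84 and 3.70 times as high as PPAT in the 4 libraries, so the ratio within the couple hardly moved while both levels fell.

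PFAS, which adds the second glutamine nitrogen, was at 33.3, 12.3, 29.1 and 16.6 FPKM and fell (log2 change -1.07 ± 0.18 SE, limma adjusted p = 0.0239). GART, a trifunctional enzyme of the chain, was at 30.8, 15.8, 26.8 and 20.4 FPKM and fell by a narrow margin (-0.65 ± 0.17 SE, limma adjusted p = 0.0491); the call was lost with a pseudocount of 0.1 or 5 and with either scaling by totals, at adjusted p between 0.0531 and 0.0705. ATIC, which closes the ring to IMP, was at 40.6, 24.1, 35.2 and 28.6 FPKM, which missed the threshold (limma adjusted p = 0.0659), although both libraries with SD70 were below both others; it was called down with a minimum of 5 FPKM (0.0339) and by limma-voom (0.00339). ADSL, which acts in the chain and again in the AMP branch, was at 1.46, 1.01, 1.22 and 0.964 FPKM with 106 to 157 reads, and did not pass (limma adjusted p = 0.476). Of its exon length, 18.9% is shared with another gene on the same strand.

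The branch to GMP split between the IMP dehydrogenases. IMPDH1 was at 45.0, 27.9, 42.7 and 31.4 FPKM and fell with SD70 (limma adjusted p = 0.0387), though not with either scaling by totals (0.0571 and 0.0559). IMPDH2 was at 141, 159, 158 and 179 FPKM, the highest level of any member in each library, without passing the test (limma adjusted p = 0.22, log2 change 0.18 ± 0.10 SE). IMPDH2 made up 75.8% of the FPKM of the couple with DMSO, 85.1% with SD70, 78.7% with MI-503 and 85.1% in the combination. GMPS, which aminates XMP to GMP, was at 19.7, 10.6, 17.0 and 11.2 FPKM and fell (limma adjusted p = 0.0287). In all, 8 of 11 measured genes of PRPP and purine synthesis fell and 0 rose, against 14.7% and 7.86% of all genes.

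Promoter windows from RefSeq (GRCh38.p14, 250 bases before to 50 after the annotated start) were found for 33 of the 35 genes. They were searched on both strands for CACGTG, the E-box that MYC binds, for TTTNNCGC, an E2F-type motif, and for CCAAT, the NF-Y-type motif. CACGTG was present in 6 of the 33 windows (18.2%), those of PPAT, ATIC, DHODH, DCK, NME1 and MTHFD1, against 10.9% of 8158 windows of measured protein-coding genes and 7.43% of all 27305. It was in 4 of 22 windows of members that fell with SD70 (18.2%) and in 2 of 11 of the others (18.2%). TTTNNCGC was present in 3 windows (9.09%, against 11.3% of the 8158), those of PRPS2, TYMS and DCK, and CCAAT in 11 (33.3%, against 37.3%). TTTNNCGC was in 9.09% of the windows of members that fell and in 9.09% of the others, and CCAAT in 9 of 22 (40.9%) and in 2 of 11 (18.2%); these splits were not tested. For PAICS, RefSeq's window lies at chr4:56410257-56410556, upstream of the GENCODE start used here, so its count of 0 motifs does not cover the region between PPAT and PAICS. The windows below are those of PPAT, which spans that region, of the gene with most E-boxes (ATIC), of the gene with the lowest ratio under SD70 (NME1), and of SAMHD1, which rose; capitals mark CACGTG, and CCAAT is left in lower case.
PPAT, minus strand, chr4:56435566-56435865: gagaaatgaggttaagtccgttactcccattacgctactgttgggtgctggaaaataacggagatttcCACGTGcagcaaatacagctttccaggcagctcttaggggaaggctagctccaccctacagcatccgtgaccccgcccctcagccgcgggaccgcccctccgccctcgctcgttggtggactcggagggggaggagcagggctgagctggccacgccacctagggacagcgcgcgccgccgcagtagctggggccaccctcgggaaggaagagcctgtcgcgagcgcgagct
ATIC, plus strand, chr2:215311809-215312108: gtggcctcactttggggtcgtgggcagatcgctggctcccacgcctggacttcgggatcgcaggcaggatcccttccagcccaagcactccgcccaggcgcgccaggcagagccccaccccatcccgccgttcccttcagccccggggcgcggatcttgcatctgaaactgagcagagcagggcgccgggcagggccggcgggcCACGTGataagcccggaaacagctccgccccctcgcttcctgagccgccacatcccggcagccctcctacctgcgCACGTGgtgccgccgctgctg
NME1, plus strand, chr17:51153309-51153608: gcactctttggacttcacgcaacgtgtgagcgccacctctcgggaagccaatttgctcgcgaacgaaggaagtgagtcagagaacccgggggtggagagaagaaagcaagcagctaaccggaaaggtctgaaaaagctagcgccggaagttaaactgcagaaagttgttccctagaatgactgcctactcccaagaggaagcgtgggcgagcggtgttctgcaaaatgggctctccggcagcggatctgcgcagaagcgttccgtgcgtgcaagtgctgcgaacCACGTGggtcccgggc
SAMHD1, minus strand, chr20:36951659-36951958: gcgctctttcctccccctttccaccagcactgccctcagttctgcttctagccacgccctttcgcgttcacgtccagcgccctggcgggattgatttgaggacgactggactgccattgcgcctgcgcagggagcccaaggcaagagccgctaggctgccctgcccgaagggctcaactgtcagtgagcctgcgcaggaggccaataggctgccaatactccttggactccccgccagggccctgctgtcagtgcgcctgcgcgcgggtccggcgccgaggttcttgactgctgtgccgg
In the PPAT window the E-box takes bases 69 to 74, counted from the 5′ end, and the GENCODE start of PAICS is at base 125 on the other strand, so the E-box lies inside the annotated PAICS gene. ATIC has 1 E-box from base 205 to 210, upstream of the start, and 1 from base 280 to 285, downstream of it. The E-box of NME1 takes bases 285 to 290, downstream of the start. The SAMHD1 window holds neither CACGTG nor TTTNNCGC, which says only that these letters are not in this window.

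Pyrimidine synthesis genes were lower with SD70 as well. CAD, which carries the first 3 activities of the pathway in 1 protein, was at 32.3, 15.0, 30.3 and 20.7 FPKM and fell (log2 change -0.80 ± 0.17 SE, limma adjusted p = 0.0327). DHODH, the mitochondrial dehydrogenase of the pathway and a drug target in leukaemia, was at 5.83, 2.69, 5.14 and 3.26 FPKM and fell (limma adjusted p = 0.0329). UMPS, which makes UMP, was at 10.1, 5.31, 8.97 and 5.07 FPKM and fell (limma adjusted p = 0.0229). In each of the 3 genes both libraries with SD70 were below both others.

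Of the CTP synthetases, 1 passed the test and 1 did not, and their difference was not tested. CTPS1, described as the form of proliferating lymphocytes, was at 13.7, 4.92, 9.83 and 6.64 FPKM and fell (log2 change -0.91 ± 0.21 SE, limma adjusted p = 0.0399), though not with either scaling by totals (adjusted p = 0.0549 and 0.0591). CTPS2 was at 3.10, 2.80, 3.15 and 2.22 FPKM, which missed the threshold (limma adjusted p = 0.299). CTPS1 was 4.42 times as high as CTPS2 with DMSO, 1.75 times with SD70, 3.12 times with MI-503 and 2.99 times in the combination. In the pyrimidine group 4 of 5 genes fell and 0 rose, against 14.7% and 7.86% of all genes.

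**Figure D2:**
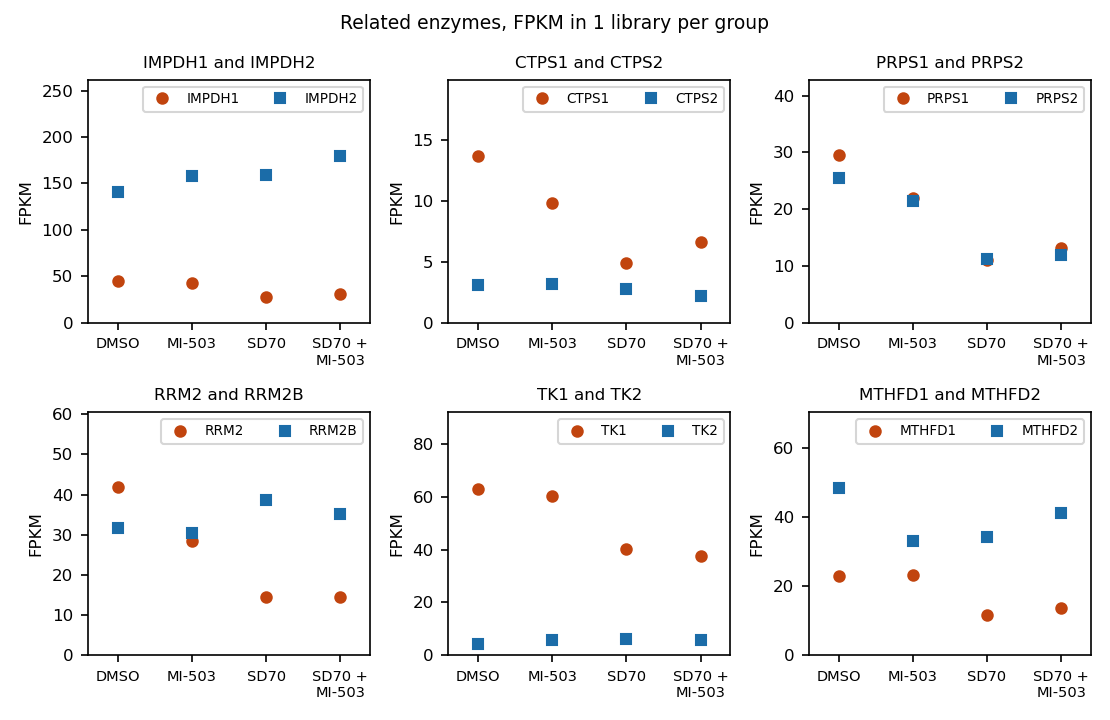
FPKM of related enzymes in the 4 libraries, 1 point per library, on linear axes from 0. IMPDH1, CTPS1, RRM2 and TK1 are lower in both libraries with SD70, while IMPDH2 and TK2 are at their lowest with DMSO, and RRM2B is higher in both libraries with SD70 than in the others.

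Genes that supply DNA precursors had the lowest median of the larger groups, -1.05 with SD70 and -1.03 in the combination against DMSO, over 6 genes. RRM1, the large subunit of ribonucleotide reductase, was at 60.6, 29.2, 48.9 and 28.2 FPKM and fell (log2 change -0.90 ± 0.13 SE, limma adjusted p = 0.0224). RRM2 was at 41.9, 14.5, 28.5 and 14.4 FPKM and fell (-1.20 ± 0.16 SE, limma adjusted p = 0.0224). RRM2 was also lower with MI-503 alone, at 0.681 of DMSO (95% counting interval 0.646 to 0.718). Its p53-inducible relative RRM2B, not among the 35, was at 31.6, 38.6, 30.4 and 35.3 FPKM, which missed the threshold (limma adjusted p = 0.185), so that RRM2 was 1.32 times as high as RRM2B with DMSO and 0.377 and 0.407 times in SD70 and the combination.

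TYMS, thymidylate synthase, was at 44.7, 19.5, 37.8 and 22.1 FPKM and fell (limma adjusted p = 0.0229). Because 46.6% of its exon length lies opposite exons of other genes, chiefly ENOSF1, and the strand setting of the counting was not given, its reads cannot be fully assigned. DTYMK, which phosphorylates dTMP, was at 37.4, 17.4, 31.7 and 17.0 FPKM, and DUT, the dUTPase that keeps uracil out of DNA, at 42.7, 21.1, 42.9 and 24.3 FPKM; both fell, with a limma adjusted p = 0.0224 for each. DCTD, the dCMP deaminase, was at 20.1, 16.2, 17.2 and 17.9 FPKM, which missed the threshold (limma adjusted p = 0.563). Thus 5 of 6 fell and 0 rose, against 14.7% and 7.86% of all genes. DUT and RRM2 also share 14.5% and 20.2% of their exon length with other genes.

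Salvage genes were mixed. HPRT1, which recycles hypoxanthine and guanine, was at 42.8, 22.7, 37.4 and 23.9 FPKM and fell (limma adjusted p = 0.0253). APRT, which recycles adenine, was at 91.5, 50.2, 79.1 and 61.7 FPKM and fell narrowly (limma adjusted p = 0.0479), a call lost with a pseudocount of 0.1 or 5 and with either scaling by totals (adjusted p between 0.0541 and 0.0729). TK1, the thymidine kinase of S phase, was at 62.8, 40.3, 60.2 and 37.4 FPKM and fell (limma adjusted p = 0.0255).

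DCK, which activates deoxycytidine and the drug cytarabine, was at 20.6, 15.2, 19.1 and 14.3 FPKM, which missed the threshold (limma adjusted p = 0.0656, but 0.0353 with a minimum of 5 FPKM and 0.0177 by limma-voom), with a ratio of SD70 to DMSO of 0.739 (95% counting interval 0.671 to 0.812). TK2, the mitochondrial thymidine kinase, was at 4.24, 6.19, 5.56 and 5.80 FPKM, lowest with DMSO, and did not pass (limma adjusted p = 0.255). Of its exon length, 21.9% lies opposite other genes. TK1 was 14.8 times as high as TK2 with DMSO and 6.51 and 6.45 times in SD70 and the combination. In this group 3 of 5 fell and 0 rose, against 14.7% and 7.86% of all genes.

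De novo and salvage enzymes can be set side by side over the treatments. In SD70 against DMSO, 13 of 16 measured de novo genes and 3 of 5 salvage genes were lower by at least 1.5-fold, with median log2 folds of -0.91 and -0.63. At that fold, 18.8% of all genes and 19.4% of protein-coding genes were lower. In the combination against DMSO the counts were 10 of 16 and 2 of 5 (14.9% of all genes and 15% of protein-coding genes were lower), with medians of -0.72 and -0.56. Over the 34 members, 19 were lower and 1 higher by 1.5-fold (13% of all genes and 10.5% of protein-coding genes were higher), and by 2-fold 8 were lower (3.76% of all genes) and 1 higher (4.98%). For MI-503 against DMSO the medians were -0.19 and -0.11, with 0 of the 34 members lower by 1.5-fold (2.55% of all genes, 0.506% of protein-coding genes) and 1, SAMHD1, higher (4.37% and 2.33%). By 2-fold 0 were lower (0.984% of all genes) and 0 higher (1.18%). The difference between the groups was not tested, and with 5 salvage genes whose values run from -0.89 (HPRT1) to 0.46 (TK2) with SD70, their ranges overlap.

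**Figure D3:**
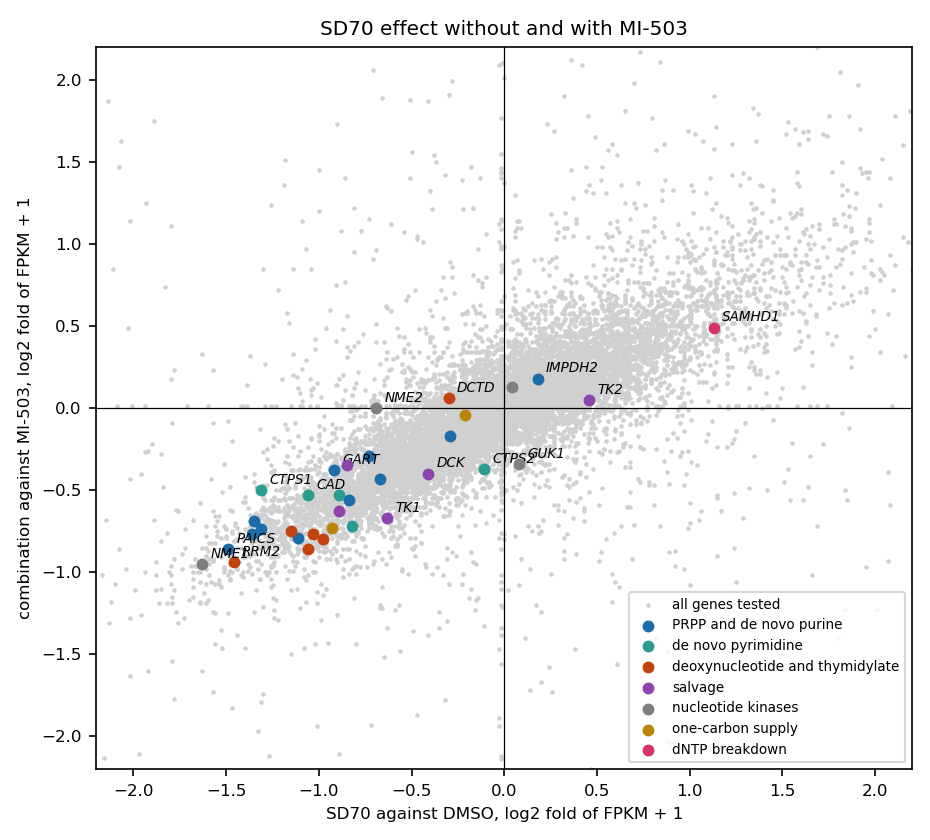
Log2 fold (FPKM + 1) of SD70 against DMSO on the x axis and of the combination against MI-503 on the y axis; grey points are all genes tested, coloured points the 34 measured members, and the axes are limited to the range shown. The members sit mostly in the lower left, where both pairs are lower with SD70, with SAMHD1 at 1.13 and 0.49 in the upper right.

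Of 4 kinases that finish the nucleotides, 1 fell with SD70 and 0 rose. Over all genes 14.7% were called down and 7.86% up, and 4 genes are too few to set against these shares. NME1, a nucleoside diphosphate kinase, had the lowest ratio of SD70 to DMSO among the members, 0.263 (95% counting interval 0.219 to 0.314), at 11.2, 2.93, 10.4 and 4.91 FPKM, and fell (limma adjusted p = 0.0224). Its neighbour NME2 was at 2.04, 0.884, 2.19 and 2.19 FPKM, with 36 to 90 reads, and did not pass (limma adjusted p = 0.318). Both share exons with the read-through gene NME1-NME2 (18.6% and 22.9% of their exon length), which had 0 to 7 reads, and how reads in shared exons were counted is not given in the sources used here. GUK1, guanylate kinase, was at 10.7, 11.4, 12.7 and 9.82 FPKM, and CMPK1, the UMP and CMP kinase, at 38.5, 39.7, 36.5 and 40.0 FPKM. Neither passed (limma adjusted p = 0.558 and 0.619), and CMPK1 stayed within 0.949 to 1.04 times DMSO.

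The cytosolic one-carbon enzymes MTHFD1 and SHMT1 load folate with carbon units for purines and thymidylate. MTHFD1 was at 22.9, 11.6, 23.0 and 13.5 FPKM and fell (log2 change -0.83 ± 0.13 SE, limma adjusted p = 0.0227); 11.04% of its exon length lies opposite other genes. SHMT1 was at 4.29, 3.58, 4.41 and 4.25 FPKM, which missed the threshold (limma adjusted p = 0.509). The mitochondrial SHMT2, outside the 35, was at 47.6, 48.5, 51.1 and 56.1 FPKM, which missed the threshold (limma adjusted p = 0.639). MTHFD2, its mitochondrial partner, was at 48.4, 34.0, 32.9 and 41.1 FPKM, lower with either agent than with both, and did not pass (limma adjusted p = 0.77).

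SAMHD1, the enzyme that hydrolyses dNTPs in resting myeloid cells and inactivates cytarabine triphosphate, was at 5.18, 12.5, 8.86 and 12.9 FPKM. All 3 treated libraries were above DMSO, by ratios of 2.41 (95% counting interval 2.23 to 2.61) for SD70, 1.71 (1.57 to 1.86) for MI-503 and 2.49 (2.30 to 2.69) for the combination. It rose with SD70 (change on the log2 scale 0.81 ± 0.18 SE, limma adjusted p = 0.0367) and was the only member called up. The combination was 1.03 times SD70 alone (0.973 to 1.10), so no further difference was detectable at this depth. Of its exon length, 10.3% lies opposite TLDC2.

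The difference with MI-503 had opposite signs without and with SD70 for 21 of 34 members (61.8%) and for 56.5% of all genes, a share near the background. With both counting intervals clear of 1 there were 13 such members, and the difference between the pairs was not tested. Alone it left CTPS1 at 0.718 of DMSO (95% counting interval 0.675 to 0.764), whereas the combination was 1.35 times SD70 (1.24 to 1.48). CAD stood at 0.938 of DMSO (0.898 to 0.98) and at 1.39 times SD70 (1.31 to 1.47), and PFAS at 0.873 (0.83 to 0.917) and 1.35 (1.25 to 1.45). In all, 12 of the 34 members were lower with MI-503 alone and higher when it was added to SD70 with both intervals clear of 1, where 8.17% of all genes were. Such intervals clear 1 more easily in well-expressed genes, and among genes averaging 5 FPKM or more the counts were 11 of 29 members and 12.5% of 7193 genes. The 12 were 6 purine genes (PRPS1, PPAT, GART, PFAS, PAICS and ATIC), 3 pyrimidine genes (CAD, DHODH and CTPS1), TYMS, DCTD and APRT. The opposite order was seen for 1 member, GUK1, and for 4.95% of all genes. The direction alone, lower without SD70 and higher with it at any size, held for 18 of 34 members (52.9%) and for 32.9% of all genes.

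The departure from additivity compares the log2 fold of the combination with the sum of both single-agent log2 folds, all against DMSO, and is 0 where they are equal. It has no test, since it is the error of the fit. It was above 0 for 29 of the 34 members, where 55% of all genes were, with a median of 0.27 against 0.04. In the lists of other genes described below, it was above 0 for 17 of 18 MYC and S phase genes (median 0.26). The same held for 13 of 15 folate and one-carbon genes (0.42) and 6 of 8 transporters (0.25). For further synthesis and salvage it was 13 of 21 (0.17), and for breakdown 10 of 16 (0.04). Among the members, the median was 0.44 for PRPP and purine synthesis, 0.36 for pyrimidine synthesis, 0.31 for DNA precursors and 0.02 for salvage. The 5 salvage values were spread, from -0.4 (TK2) to 0.5 (APRT), with HPRT1 at 0.26. The 16 de novo values ran from -0.26 (CTPS2) to 0.81 (CTPS1), so the ranges overlap, and the difference was not tested. From the ratios without pseudocount the departure was 0.91 for CTPS1 (95% interval 0.76 to 1.06), 0.56 for CAD (0.46 to 0.67) and -0.04 for TK1 (-0.2 to 0.11). SAMHD1 had the lowest value, -0.73 (-0.88 to -0.58). Intervals on departures are normal approximations on the log2 scale from the reads of all 4 libraries, and cover counting error only. For RRM1, RRM2 and DTYMK the combination stood at 0.967, 0.987 and 0.981 times SD70. For the purine genes PRPS2, GMPS and ADSL it stood at 1.06, 1.06 and 0.955 times. The 95% counting interval of each of these 6 ratios included 1. Of the 5 pyrimidine genes 3 were higher in the combination than in SD70 and 2 were lower. The lower ones were UMPS, at 0.954 times SD70 (0.851 to 1.07), and CTPS2, at 0.791 times (0.65 to 0.961). In the combination 2 members, NME1 and NME2, were higher than in SD70 by at least 1.5-fold (2.53% of all genes, 0.404% of protein-coding genes) and 0 were lower (2.23% and 0.192%). By 2-fold 0 were higher (0.846% of all genes) and 0 lower (0.952%), and with and without SD70 alike 0 members were lower (0.415%) or higher (0.561%) by 1.5-fold with MI-503.

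**Figure D4:**
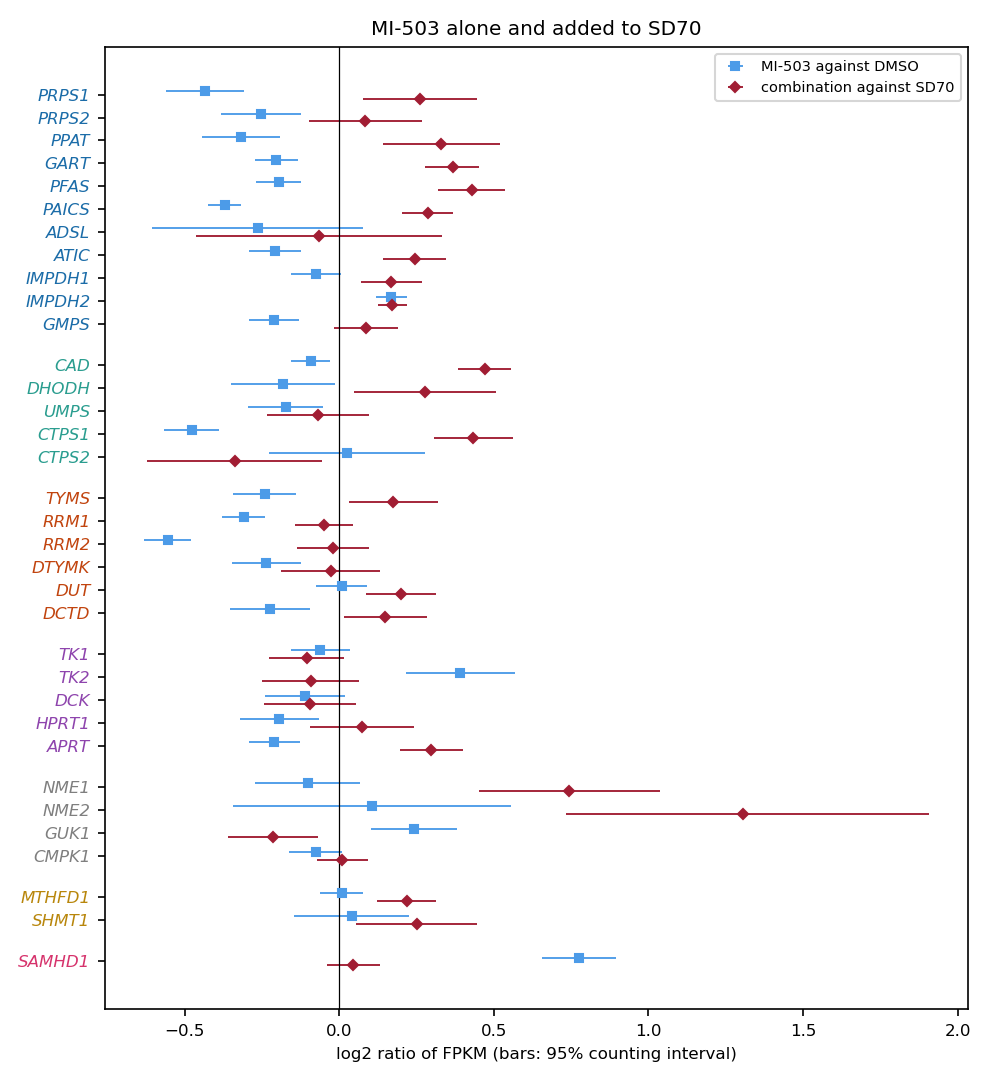
Log2 ratio of FPKM for MI-503 against DMSO (squares) and for the combination against SD70 (diamonds), by member, with 95% counting intervals as bars and names coloured by role as in the plot of levels. Purine and pyrimidine genes lie mostly to the left of 0 for MI-503 alone and to the right when it was added to SD70, RRM1 and RRM2 do so only for the first part, and SAMHD1 lies far to the right with MI-503 alone and at 0 with SD70 present.

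MYC, of which several of these genes are known targets, was at 181, 83.2, 169 and 130 FPKM. It fell with SD70 (limma adjusted p = 0.0463) and was 1.56 times as high in the combination as in SD70 (95% counting interval 1.501 to 1.63), a departure of 0.74 (0.66 to 0.81). In a list of 18 measured MYC and S phase genes, 14 fell and 1 (MXD1, a MYC antagonist) rose with SD70. Over all genes, 14.7% were called down and 7.86% up. The median log2 fold of these 18 genes was -1.10 against DMSO. Their part in the levels of nucleotide genes was not tested.

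Other genes of the pathway, outside the 35, were counted by list; over all genes 14.7% were called down and 7.86% up with SD70. Of 15 measured folate and one-carbon genes, 3 fell with SD70 and 1 rose, near those shares. SLC19A1, the folate carrier, fell from 14.3 to 5.21 FPKM, and GGH, which trims the glutamate tail of folates, from 32.6 to 20.9 (limma adjusted p = 0.0295 and 0.0266). Of 21 further synthesis and salvage genes, 5 fell and 0 rose. Among them were PNP, which frees purine bases (29.6 to 13.3 FPKM, limma adjusted p = 0.0224), the uridine kinase gene UCK2, NME4 and ADSS2, the adenylosuccinate synthase of most cells (24.0 to 14.4 FPKM, limma adjusted p = 0.0478).

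Of 16 measured breakdown and pool-cleaning genes (against 14.7% down and 7.86% up over all genes), 4 fell, DCTPP1, NUDT1 and NT5C3A among them, and 1 rose. DCTPP1, which removes dCTP and its analogues, fell from 46.1 to 19.0 FPKM (limma adjusted p = 0.0229), and TYMP, thymidine phosphorylase, rose from 21.5 to 32.7 (limma adjusted p = 0.0299). Among 8 measured transporters 3 fell and 0 rose. SLC29A1, the equilibrative carrier ENT1 that imports nucleosides and cytarabine, was at 41.5, 11.2, 31.8 and 15.2 FPKM (log2 change -1.41 ± 0.21 SE, limma adjusted p = 0.0224), and the others were SLC43A3 and ABCC4. The median log2 fold with SD70 was -0.62 for the folate list, -0.17 for further synthesis and salvage, -0.19 for breakdown and -0.33 for transport, against -0.87 for the 34 measured members and -0.07 for all genes.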

How the data were processed

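RNA was measured in MOLM13 cells in 4 libraries, 1 per treatment, grouped by the treatment label. BWA, Bowtie and hg38 are named in the submitters' processing notes, with no role or version. The authors deposited 1 table per library, with 58735 Ensembl identifiers and a value read here as FPKM, since the header names no unit. Each deposited FPKM times the GENCODE 29 union-exon length was a whole multiple of 1 step per library, within 0.01 of a read, for 100% of values above 0, and the implied library sizes differed by 0.0% from median-of-ratios size factors. The tool that did the scaling is not given in the sources used here. Of the identifiers, 58207 had a symbol in the name table.

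A pseudocount of 1 and a minimum mean of 1 FPKM were used, with limma 3.58.1 in R 4.3.3 and Python 3.11.15. The additive fit was tested on simulated data. Members, lists, the motifs and the naming rule (all members, the isoform partners, and at most 4 called genes per other list) were chosen with earlier results of these data known. With 1 library per group the spread between cultures is unknown. The alternatives were other pseudocounts, filters, scalings and fold limits, limma without the trend and limma-voom. Of the members, 9 share over 10% of their exon length with other genes, and 13 have pseudogenes named after them (39 in all), whose reads may be shared. Values of some genes in the other lists are not reported here.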

Additional observations from a re-analysis of the deposited data

Results flagged for a closer look

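For 13 members MI-503 moved the level one way without SD70 and the other way with it, with both 95% counting intervals clear of 1. Each side is a single library against another, and the difference was not tested. Lower first and then higher were 12 of 34 members and 8.17% of all genes, and the reverse 1 member and 4.95%. Among genes averaging 5 FPKM or more, the first order held for 11 of 29 members and 12.5% of 7193 genes. Against DMSO, MI-503 left PRPS1 at a ratio of 0.74, PPAT at 0.803, GART at 0.869, PFAS at 0.873, PAICS at 0.773 and ATIC at 0.866, and the combination was 1.2, 1.26, 1.29, 1.35, 1.22 and 1.19 times SD70 for the same genes. In pyrimidine synthesis the ratios were 0.938 for CAD, 0.881 for DHODH and 0.718 for CTPS1, and 1.39, 1.21 and 1.35 with SD70 present. TYMS, DCTD and APRT had 0.846, 0.856 and 0.865, and 1.13, 1.11 and 1.23. GUK1 went in the opposite sense, at 1.18 without SD70 and 0.862 with it.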

How the results depend on the processing

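No paired analysis was possible because each group holds 1 library and the groups share only 1 replicate number. Leaving out a library leaves no residual degree of freedom, so no such fit was made. At 2-fold, 12 members were lower in SD70 and 8 in the combination against DMSO, and 0 in the combination against MI-503; MI-503 against DMSO and the combination against SD70 had 0 higher. With a pseudocount of 5, 0 were higher in MI-503 against DMSO and 0 in the combination against SD70. For the latter, a minimum of 5 FPKM, the same FPKM total and the same read total each left 1. In the additive fit for SD70, 0 members were called down and 0 up with no filter or without the trend, where 0 genes of the whole table passed, against 18 to 24 down and 1 up in the other settings. Without the 9 members that share exons (chosen after seeing the data), 17 of 25 were called down and 0 up, and 0 were higher in SD70, MI-503 or the combination against DMSO or in the combination against SD70. The de novo median in SD70 against DMSO was -1.02 with a pseudocount of 0.1 and -0.72 with 5; with 5 it was -0.56 for the combination against DMSO and -0.41 against MI-503, and the median of DNA precursor genes was -0.93 in SD70 and -0.91 in the combination against DMSO. The departure was above 0 for 27 to 29 members in the settings run, which were also chosen after seeing the data. The causes of these shifts were not tested. Few reads limit ADSL, NME2 and ADSS1, which had 36 to 157 reads per library. ADSL and NME2 also share 18.9% and 22.9% of their exon length with other genes on the same strand. The part of this sharing in their low counts was not tested.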
